A study of Mus musculus with 16 samples.

Results

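Genes of neutrophil granules and lysozyme, 8 of the 22437 genes and unnamed transcripts tested, were followed through early B-lineage fractions of mouse fetal liver and adult bone marrow. The set was chosen by name: the primary granule genes Mpo, Elane, Prtn3 and Ctsg, the secondary granule genes Ltf, Ngp and Camp, and the lysozyme gene Lyz2. All 8 were measured, by 10 probes, since Lyz2 and Ltf each had a second probe. The study compared sorted fraction A (Fr.A) and fraction B/C (Fr.B/C), which the Hardy scheme names pre-pro-B and pro-B cells, between both tissues of BALB/c mice. The 4 groups, with 4 arrays each, were Fr.B/C and Fr.A of fetal liver and Fr.B/C and Fr.A of bone marrow. Fetal liver came from embryos at gestation day 16, on average 8 embryos of 1 litter per sort. Bone marrow came from adult females, 16 mice pooled per sort. Each of the 4 sorts per tissue gave 1 sample of both fractions, and 100 ng of total RNA per sample was amplified. Every sample was hybridised on a dual-colour Agilent array against reference RNA from 6 cell lines, with the sample in Cy5 on arrays 1 and 3 and in Cy3 on arrays 2 and 4. The labels count the 4 arrays of a group as 4 sorts, and the SDs, SEs and p-values below take them as independent unless another fit is named. Arrays 1 and 2, and arrays 3 and 4, of a group nevertheless resembled each other: their deviations from the group mean and dye effect, over genes usable on all 16 arrays, correlated at r = -0.05 to 0.77 within such a set and at r = -0.86 to -0.53 between sets, where deviations from a shared mean lean below 0 by construction. Whether the arrays of a set, which have opposite dyes, share RNA was not settled, and if they do, n is 2 per group and these p-values are too small.

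Neutrophils load their granules in an order set by maturation. Primary (azurophil) granules form at the promyelocyte stage and hold myeloperoxidase and the serine proteases, whereas secondary (specific) granules form later, at the myelocyte and metamyelocyte stages, and hold lactoferrin and the cathelicidin peptides. The transcripts follow the same order, so that primary granule RNA marks early granulocyte and monocyte progenitors and secondary granule RNA marks later granulocyte precursors. Lysozyme is made by granulocytes and by monocytes and macrophages.

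The stretches of promoter below are printed to show letters that several of the 8 genes share before their start sites. They are RefSeq sequences of the mouse build GRCm38.p6, read from the 250 bases before each gene's start, on the gene's strand and 5′ to 3′. Capitals mark AGGAAGT or its reverse complement, letters with the GGAA core that ETS-family factors such as PU.1 bind, or TTGCNNAA on either strand, letters that C/EBP factors bind. Both motifs were chosen after the sequences had been seen.
Mpo, chr11:87793536-87793592, plus strand: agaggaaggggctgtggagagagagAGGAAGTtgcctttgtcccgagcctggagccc
Elane, chr10:79886203-79886259, plus strand: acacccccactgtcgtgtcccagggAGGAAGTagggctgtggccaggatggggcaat
Prtn3, chr10:79879548-79879604, plus strand: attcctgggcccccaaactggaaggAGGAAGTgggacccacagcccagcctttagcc
Ctsg, chr14:56102749-56102805, minus strand: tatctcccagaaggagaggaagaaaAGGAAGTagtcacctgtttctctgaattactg
Lyz2, chr10:117282341-117282397, minus strand: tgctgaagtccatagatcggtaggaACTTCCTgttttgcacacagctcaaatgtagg
Ltf, chr9:111019192-111019249, plus strand: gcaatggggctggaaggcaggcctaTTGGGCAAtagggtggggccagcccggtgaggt
Ngp, chr9:110419645-110419702, plus strand: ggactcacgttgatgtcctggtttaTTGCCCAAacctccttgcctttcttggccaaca

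The AGGAAGT letters stood in the window of 5 members, the 4 primary granule genes and Lyz2, and in 7.69% of all 32851 promoter windows of that length. The TTGCNNAA letters stood in the windows of 2 members, Ltf and Ngp, and in 9.56% of all windows. Ngp held a second match nearer its start, and the Camp window held neither motif. Elane and Prtn3 lie close together on chromosome 10, and Ltf, Ngp and Camp lie on chromosome 9. A match of letters is a description of the sequence and no measure of binding.

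In fetal liver, RNA of the late granule genes and of lysozyme stood below its level in bone marrow, in both fractions. Lyz2, Ltf, Ngp and Camp were each 3.84 to 7.05-fold lower, while Mpo, the defining primary granule gene, did not pass the test between the tissues. Mpo instead separated the fractions, 6.98-fold lower in Fr.B/C than in Fr.A of fetal liver and 5.87-fold lower in bone marrow. That call held under the alternatives, but its size depended on the setting. Prtn3, which encodes proteinase 3, was higher in fetal liver Fr.A than in fetal liver Fr.B/C and than in bone marrow Fr.A.

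All values below are log2 ratios of the sample over the reference RNA unless another scale is named, so differences between groups are log2 differences and no gene's level is set against another gene's. A call is an adjusted p below 0.05 in a limma fit to all 16 arrays, adjusted over all genes tested. On the arrays, 52.9% to 68.3% of probes were well above background in the channel of the sample. All 8 genes were well above background on all 16 arrays except Elane, which was so on 3 of the 4 arrays of both fetal liver groups, and none was saturated. In bulk samples, fewer cells that carry a transcript and less RNA per cell cannot be told apart. No scan session held arrays of both tissues, so the session of scanning and the tissue cannot be told apart. Of 13 measured B-progenitor markers, 8 were higher and 3 lower in Fr.B/C than in Fr.A of fetal liver, and 8 were higher and 1 lower in bone marrow. Those lower were Rag1 in both tissues, at -1.06 in fetal liver and -0.65 in bone marrow, and Rag2 (-0.45) and Ptprc (-1.30) in fetal liver, named after their values were seen. Of all 22437 genes, 2256 were higher in Fr.B/C of fetal liver and 3018 in bone marrow. Pax5 and Igll1, of the same list, were not analysed here.

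**Figure D1:**
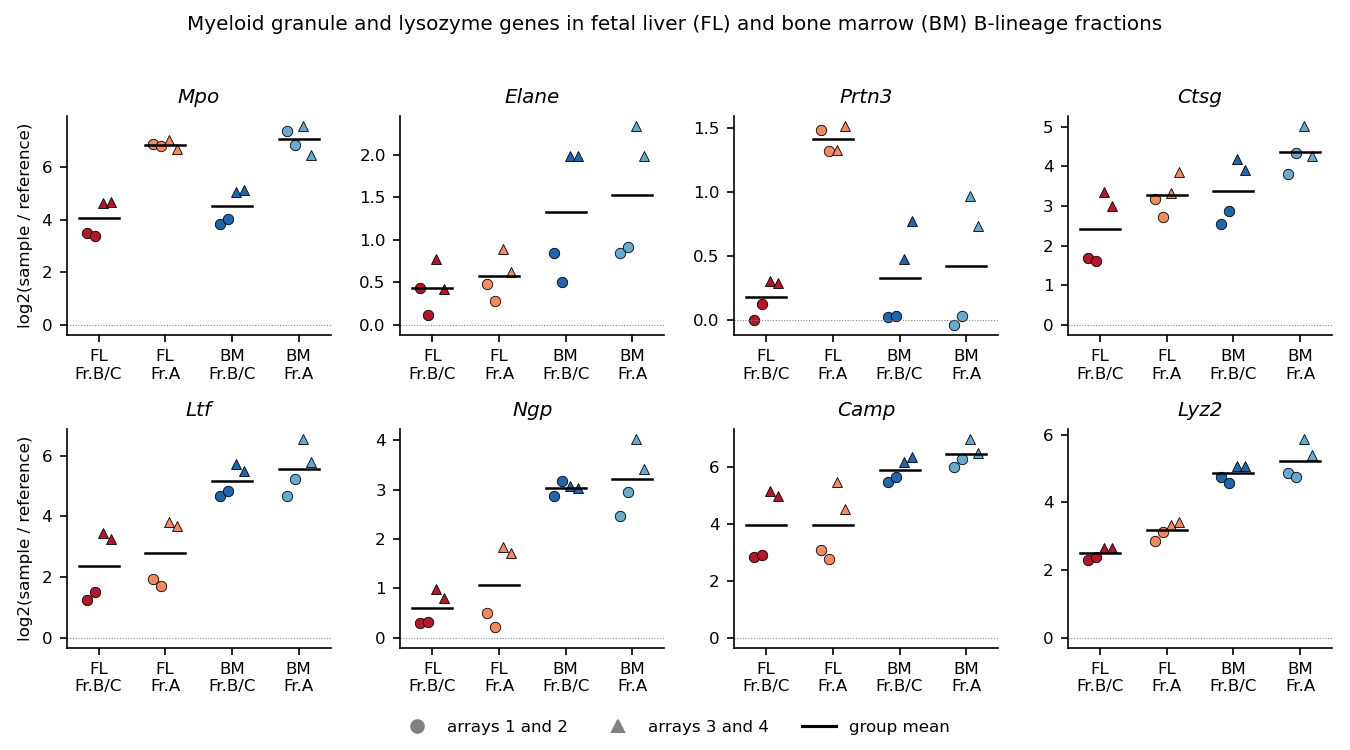
Each panel plots 1 gene's log2 ratio of sample over reference on every array of the 4 groups, with circles for arrays 1 and 2, triangles for arrays 3 and 4 and a line for the mean of 4 arrays. Lyz2, Ltf, Ngp and Camp lie lower on all fetal liver arrays than on any bone marrow array of the same fraction, Mpo lies lower in Fr.B/C than in Fr.A of both tissues, and Prtn3 is highest in fetal liver Fr.A.

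Mpo encodes myeloperoxidase, the peroxidase of primary granules that makes hypochlorous acid. Fetal liver Fr.B/C gave Mpo log2 ratios of 3.51, 3.37, 4.63 and 4.68 on arrays 1 to 4, against 6.87, 6.81, 7.03 and 6.70 in fetal liver Fr.A. Bone marrow Fr.B/C gave 3.83, 4.01, 5.03 and 5.12, against 7.37, 6.83, 7.56 and 6.45 in bone marrow Fr.A. All 8 Fr.B/C arrays were below all 8 Fr.A arrays, and within each fraction the tissues overlapped.

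Mpo fell by 2.80 ± 0.34 in fetal liver Fr.B/C relative to Fr.A (SE, n = 4 arrays each, limma adjusted p = 1.74e-05) and by 2.55 ± 0.34 in bone marrow (limma adjusted p = 3.15e-05). Between tissues, fetal liver minus bone marrow was -0.20 in Fr.A (95% interval -0.93 to 0.53, limma adjusted p = 0.726) and -0.45 in Fr.B/C (95% interval -1.18 to 0.28, limma adjusted p = 0.365). These intervals still hold differences of either sign. From low to high the group means were 4.05 ± 0.71 in Fr.B/C of fetal liver, 4.50 ± 0.67 in Fr.B/C of bone marrow, 6.85 ± 0.14 in Fr.A of fetal liver and 7.05 ± 0.51 in Fr.A of bone marrow (SD, n = 4 each). Neighbours of the same fraction did not differ beyond their spread.

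The Mpo difference was larger in the sample's own channel than in the ratio. The scanner's processed signal of the sample ran from 4259 to 11626 in fetal liver Fr.B/C, against 204525 to 280322 in fetal liver Fr.A. In bone marrow it ran from 7414 to 23490 in Fr.B/C, against 265512 to 439208 in Fr.A. The reference channel of the same Mpo spots, which holds the same RNA on every array, ran from 131 to 160 and 1453 to 2161 in fetal liver Fr.B/C and Fr.A, and from 193 to 310 and 1103 to 3384 in bone marrow Fr.B/C and Fr.A. The reference reading thus moved with the sample reading, by -2.15 ± 0.17 in fetal liver and -2.0 ± 0.17 in bone marrow (log2 intensity, Fr.B/C minus Fr.A, SE, limma adjusted p = 3.70e-05 and 9.64e-05). In the reference channel, 0.0223% of genes passed in fetal liver and 0.0134% in bone marrow. The others were named after their values were seen. Cd34, a progenitor surface antigen, passed in both tissues, at -1.36 and -1.38, as did a transcript with no gene name here, at -2.72 and -2.98. In fetal liver Tyrobp, a myeloid signalling adaptor, passed at -1.85, and a second unnamed transcript was higher in the reference channel by 0.99 with a ratio difference of -0.20 (limma adjusted p = 3.70e-05 and 0.161). From the sample channel alone, an alternative chosen after seeing the data, the Mpo difference was -4.96 in fetal liver and -4.56 in bone marrow (limma adjusted p = 8.55e-09 and 1.61e-08). With the scanner's processed signals it was -1.50 and -1.52, and in the authors' deposited table -1.81 and -1.69. Over all alternatives adjusted p ran from 8.55e-09 to 0.00848 in fetal liver and from 1.61e-08 to 0.0192 in bone marrow, so the call held and the size of the difference depended on the setting. Why the reference reading moved was not tested.

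**Figure D2:**
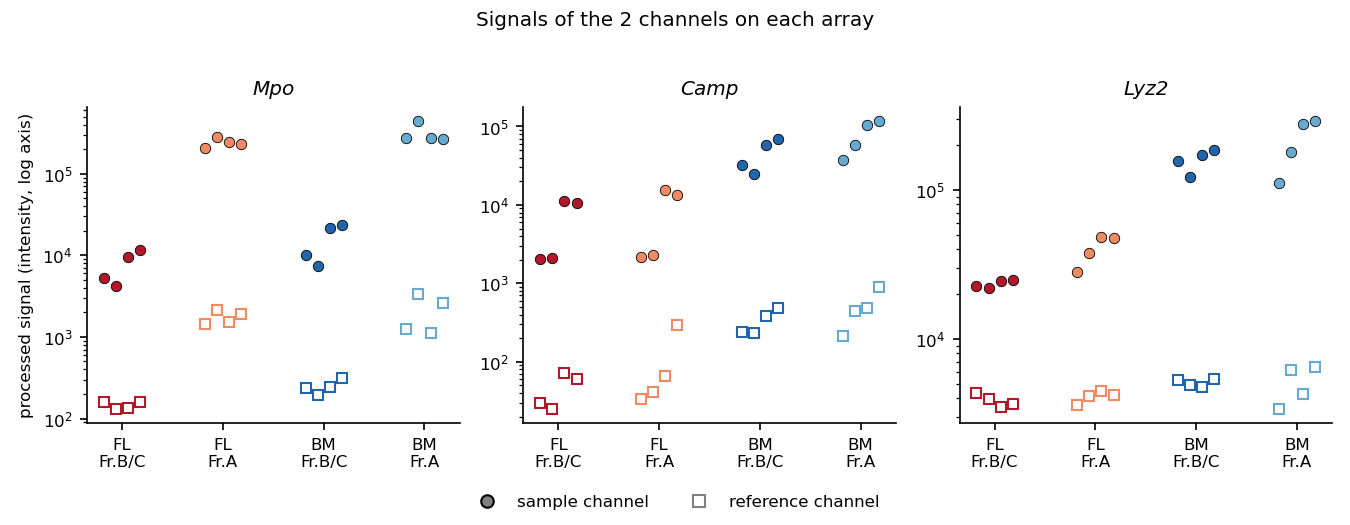
For Mpo, Camp and Lyz2 the panels plot the scanner's processed signal (intensity, log axis) of the sample channel as filled circles and of the reference channel as open squares, with 1 pair per array in the 4 groups. The Mpo reference signals lie at 131 to 310 in Fr.B/C and at 1103 to 3384 in Fr.A. Between the fractions the Lyz2 reference differed by -0.04 in fetal liver and -0.09 in bone marrow on the log2 scale. The Lyz2 ratio differed there by -0.68 and -0.36, less than between the tissues. From bone marrow to fetal liver the Lyz2 reference changed by -0.33 (Fr.A) and -0.28 (Fr.B/C). The Camp reference changed by -1.09 (Fr.A) and -0.89 (Fr.B/C). None of these tissue differences passed (limma adjusted p = 0.196 to 0.674).

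A separate probe drawn from a genomic Mpo sequence, which the files do not name by symbol, changed in the same direction and by less. Its Fr.B/C minus Fr.A difference was -0.65 in fetal liver and -0.87 ± 0.12 in bone marrow (SE, limma adjusted p over probes = 0.000728 and 3.75e-05). Its tissue differences were -0.14 for Fr.A and 0.07 for Fr.B/C (limma adjusted p over probes = 0.416 and 0.689).

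Prtn3 encodes proteinase 3, a serine protease of primary granules. Its log2 ratios were 0.00, 0.13, 0.31 and 0.29 in fetal liver Fr.B/C, against 1.48, 1.32, 1.33 and 1.51 in fetal liver Fr.A. In bone marrow they were 0.02, 0.03, 0.48 and 0.77 in Fr.B/C, against -0.04, 0.04, 0.96 and 0.74 in Fr.A. All 4 fetal liver Fr.A arrays were above every array of the other 3 groups, which overlapped each other.

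Prtn3 fell by 1.23 in fetal liver Fr.B/C relative to Fr.A (2.35-fold, limma adjusted p = 0.000444), whereas the bone marrow difference was -0.10 (limma adjusted p = 0.784). The test of that contrast between the tissues gave -1.13 ± 0.30 (SE, limma adjusted p = 0.0302), and Prtn3 was the 1 member of 8 to pass it, against 7.51% of all genes, 2.98% in the same direction. In Fr.A, Prtn3 was higher in fetal liver by 0.99 ± 0.21 (1.98-fold, SE, limma adjusted p = 0.00222). In Fr.B/C the tissue difference was -0.15 (95% interval -0.60 to 0.30, limma adjusted p = 0.65). The Prtn3 reference channel of Fr.A read 119 to 256 in fetal liver and 255 to 444 in bone marrow. Its log2 difference was -0.31 ± 0.15 (SE, limma adjusted p = 0.438). The processed sample signals of Fr.A, 805 to 1214 in fetal liver and 352 to 848 in bone marrow, overlapped. For the contrast of the stage difference between tissues, adjusted p ran from 0.000348 to 0.533 over the alternatives. It no longer passed without any 1 of bone marrow Fr.A arrays 1 and 2, bone marrow Fr.B/C arrays 3 and 4, fetal liver Fr.A arrays 1 and 4 or fetal liver Fr.B/C arrays 1 and 2 (limma adjusted p = 0.0525 to 0.0613). Nor did it pass with median centring (-1.06, limma adjusted p = 0.107), with array sets averaged (limma adjusted p = 0.108) or with the array set as a random block (limma adjusted p = 0.096).

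Elane encodes neutrophil elastase, the neighbour of Prtn3 on the chromosome. The files label its probe by an older name, and a probe whose description carries the symbol Ela2 belongs to a pancreatic elastase and was not used. Elane ran from 0.12 to 0.77 in fetal liver Fr.B/C and from 0.28 to 0.89 in fetal liver Fr.A, against 0.50 to 1.99 in bone marrow Fr.B/C and 0.85 to 2.34 in bone marrow Fr.A. The tissues overlapped in both fractions, and so did the fractions in both tissues.

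Fetal liver minus bone marrow for Elane was -0.95 ± 0.35 in Fr.A (SE, 95% interval -1.71 to -0.20, limma adjusted p = 0.0555) and -0.89 in Fr.B/C (limma adjusted p = 0.0732), so neither passed. With the scanner's processed signals both passed, at -2.19 and -2.17 (limma adjusted p = 0.0111 and 0.011). In the authors' deposited table the differences were -2.12 and -2.08 (limma adjusted p = 0.0061 and 0.00716). Over all alternatives adjusted p ran from 3.58e-06 to 0.329 in Fr.A and from 4.31e-06 to 0.423 in Fr.B/C, and the sign was negative in each. Without bone marrow Fr.A array 1 or 2, or bone marrow Fr.B/C array 1, 2 or 4, the Fr.A difference passed (limma adjusted p = 0.0165 to 0.0493). Without bone marrow Fr.B/C array 1 or 2, the Fr.B/C difference passed (limma adjusted p = 0.0434 and 0.0325). Between fractions Elane gave -0.13 in fetal liver and -0.19 in bone marrow (limma adjusted p = 0.853 and 0.743).

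Ctsg encodes cathepsin G, the chymotrypsin-like protease of the same granules. Its log2 ratio ran from 1.60 to 3.35 in fetal liver Fr.B/C and from 2.72 to 3.84 in fetal liver Fr.A, against 2.54 to 4.18 in bone marrow Fr.B/C and 3.81 to 5.02 in bone marrow Fr.A. In Fr.A the highest fetal liver array, at 3.84, reached just above the lowest bone marrow array. Fetal liver minus bone marrow was -1.09 ± 0.44 for Fr.A and -0.97 for Fr.B/C (SE, limma adjusted p = 0.0749 and 0.112), and Fr.B/C minus Fr.A was -0.86 in fetal liver and -0.98 in bone marrow (limma adjusted p = 0.19 and 0.105).

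Fr.A and Fr.B/C of one sort share their starting cells, and samples of the same number deviated together, so the fit with the sort as a block is given where it changed a call. Same-numbered Fr.B/C arrays of the different tissues also deviated together (r = 0.28 to 0.48). Each number also falls in a single array set, so within this block the sort and the set cannot be told apart. With the sort as a block, Ctsg was lower in Fr.B/C than in Fr.A of fetal liver (limma adjusted p = 0.00773) and of bone marrow (limma adjusted p = 0.00256). Over all alternatives adjusted p for Ctsg ran from 0.00694 to 0.655 in fetal liver and from 0.00256 to 0.457 in bone marrow. From the sample channel alone, the Ctsg tissue differences also passed, at -1.51 for Fr.A and -1.30 for Fr.B/C (limma adjusted p = 0.00297 and 0.00908), within ranges of 0.00194 to 0.423 and 0.00447 to 0.543. The Fr.B/C difference also passed without bone marrow Fr.B/C array 1 or without fetal liver Fr.B/C array 3 (limma adjusted p = 0.0488 and 0.043).

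Ltf encodes lactoferrin, the iron-binding protein of secondary granules. Its log2 ratios were 1.24, 1.49, 3.44 and 3.26 in fetal liver Fr.B/C, against 4.65, 4.82, 5.71 and 5.51 in bone marrow Fr.B/C. In Fr.A they were 1.93, 1.71, 3.81 and 3.69 in fetal liver, against 4.68, 5.23, 6.56 and 5.80 in bone marrow. No fetal liver array reached a bone marrow array of the same fraction, and within each group arrays 3 and 4 were above arrays 1 and 2.

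Ltf was lower in fetal liver, by a log2 difference of -2.82 in Fr.B/C (7.05-fold, limma adjusted p = 0.00213) and -2.78 ± 0.59 in Fr.A (6.87-fold, SE, limma adjusted p = 0.00213). Its second probe gave -2.22 and -2.43 (limma adjusted p over probes = 0.00129 and 0.000563). With the scanner's processed signals the Fr.A difference was -1.73 and did not pass (limma adjusted p = 0.0601), within a range over the alternatives of 1.44e-07 to 0.111. The Ltf reference channel differed between the tissues by -0.56 in Fr.B/C and -0.77 in Fr.A (log2 intensity, limma adjusted p = 0.615 and 0.225).

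Ngp encodes neutrophilic granule protein, a cystatin-related protein of the same granules that is known in the mouse. Its log2 ratios were 0.30, 0.31, 0.99 and 0.81 in fetal liver Fr.B/C, against 2.88, 3.18, 3.07 and 3.04 in bone marrow Fr.B/C. In Fr.A they were 0.49, 0.22, 1.84 and 1.72 in fetal liver, against 2.46, 2.96, 4.04 and 3.43 in bone marrow. The ranges stood apart in both fractions. Ngp was lower in fetal liver, by a log2 difference of -2.44 in Fr.B/C (5.43-fold, limma adjusted p = 0.000115) and -2.15 ± 0.36 in Fr.A (4.45-fold, SE, limma adjusted p = 0.00031). On Cy5 arrays alone, Ngp passed in neither fraction. In the authors' deposited table its Fr.B/C log2 ratios lay further apart, at 0.84 to 2.43 in fetal liver and 4.55 to 5.28 in bone marrow.

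Camp encodes the cathelicidin antimicrobial peptide precursor. Its log2 ratios were 2.83, 2.91, 5.15 and 4.98 in fetal liver Fr.B/C, against 5.47, 5.63, 6.18 and 6.34 in bone marrow Fr.B/C. In Fr.A they were 3.07, 2.78, 5.48 and 4.52 in fetal liver, against 6.0, 6.27, 7.0 and 6.50 in bone marrow. The ranges stood apart in both fractions, by least in Fr.B/C, where the highest fetal liver array lay at 5.15 and the lowest bone marrow array at 5.47.

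Camp was lower in fetal liver, by a log2 difference of -1.94 in Fr.B/C (3.84-fold, limma adjusted p = 0.023) and -2.48 ± 0.59 in Fr.A (5.57-fold, SE, limma adjusted p = 0.00506). With the scanner's processed signals neither passed, at -0.23 in Fr.B/C and -1.02 in Fr.A (limma adjusted p = 0.695 and 0.0794). In the authors' deposited table Camp gave -0.99 and -1.58 (limma adjusted p = 0.124 and 0.0183). Over all alternatives adjusted p for Camp ran from 6.19e-05 to 0.695 in Fr.B/C and from 2.07e-05 to 0.181 in Fr.A. The reference channel of the Camp spots read 25.1 to 72.7 in fetal liver Fr.B/C and 33.8 to 293 in fetal liver Fr.A, against 236 to 482 in bone marrow Fr.B/C and 214 to 894 in bone marrow Fr.A. The Fr.B/C call was lost without any 1 of bone marrow Fr.B/C arrays 3 and 4 or fetal liver Fr.B/C arrays 1 and 2 (limma adjusted p = 0.0518 to 0.0787).

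Lyz2 encodes the lysozyme of myeloid cells, an enzyme that cuts bacterial cell walls. Its log2 ratios were 2.28, 2.37, 2.66 and 2.65 in fetal liver Fr.B/C, against 4.75, 4.56, 5.07 and 5.06 in bone marrow Fr.B/C. In Fr.A they were 2.85, 3.11, 3.32 and 3.41 in fetal liver, against 4.87, 4.75, 5.88 and 5.40 in bone marrow. The tissues stood more than 1 log2 unit apart in both fractions, and the fetal liver fractions did not overlap each other either.

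Lyz2 was lower in fetal liver, by a log2 difference of -2.37 in Fr.B/C (5.18-fold, limma adjusted p = 6.98e-07) and -2.05 ± 0.21 in Fr.A (4.15-fold, SE, limma adjusted p = 3.12e-06). These calls held under every alternative run, with differences of -2.68 to -1.96 in Fr.B/C and -2.38 to -1.66 in Fr.A. The second Lyz2 probe gave -1.55 and -1.27 (limma adjusted p over probes = 2.03e-05 and 0.00012). Lyz1, the neighbouring lysozyme gene, gave -2.51 and -1.94 (limma adjusted p = 1.75e-07 and 2.86e-06), but its probe also lists the Lyz2 transcript, so the pair cannot be told apart by it.

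In fetal liver Lyz2 was lower in Fr.B/C than in Fr.A, at -0.68 (1.61-fold, limma adjusted p = 0.0299), and in bone marrow the difference was -0.36 (limma adjusted p = 0.224). The difference between these 2 contrasts did not pass (-0.32, limma adjusted p = 0.611). The fetal liver call was lost with the mean of both probes (-0.47, limma adjusted p = 0.091), with median centring (-0.66, limma adjusted p = 0.218), with scaling between arrays (-0.69, limma adjusted p = 0.224) and with the array set as a random block (limma adjusted p = 0.0814), within a range of 0.000262 to 0.359. It was also lost without any 1 of fetal liver Fr.A arrays 3 and 4 or fetal liver Fr.B/C arrays 1 and 2 (limma adjusted p = 0.0711 to 0.0991). The second Lyz2 probe alone gave -0.26 in fetal liver and 0.02 in bone marrow (limma adjusted p over probes = 0.386 and 0.952).

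**Figure D3:**
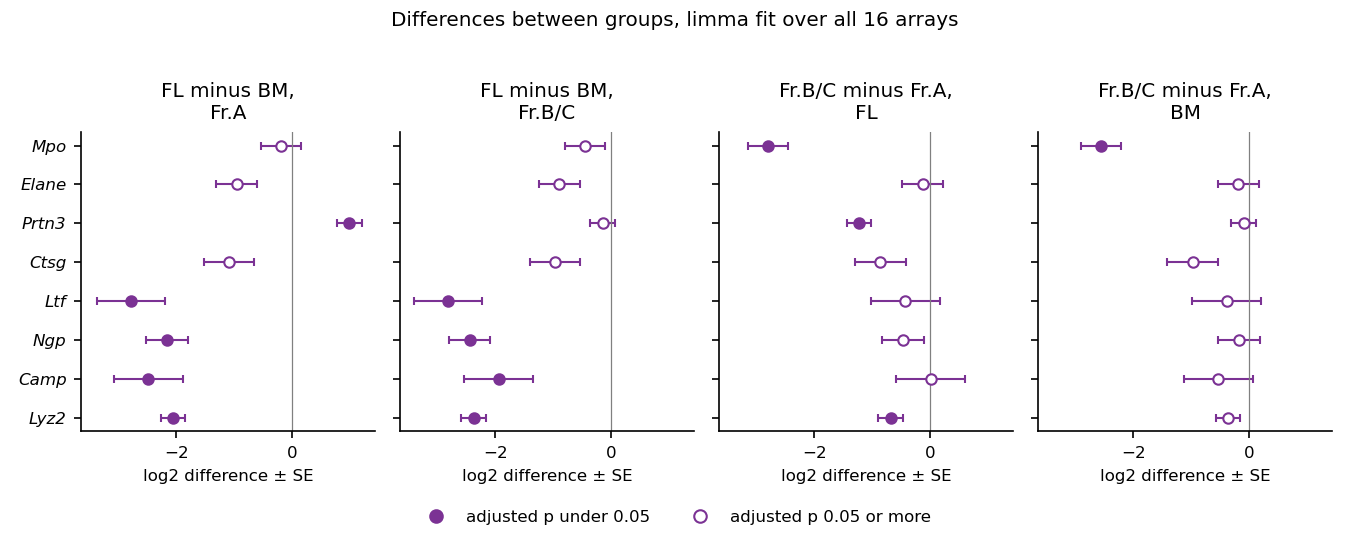
The panels give each gene's log2 difference with its SE in the 4 comparisons, filled where the limma adjusted p is under 0.05 and open otherwise. The tissue differences of Lyz2, Ltf, Ngp and Camp lie between -2.82 and -1.94, those of Elane and Ctsg between -1.09 and -0.89. The Mpo tissue differences lie at -0.45 and -0.20, and the Mpo stage differences at -2.80 and -2.55.

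Counted over the set, 5 of 8 genes passed between the tissues for Fr.A, against 29.5% of all genes. Of these, 1 was higher in fetal liver (12.2% of all genes) and 4 were lower (17.3%). For Fr.B/C 4 of 8 passed, against 28.5% of all genes, and all 4 were lower in fetal liver (14.6% of all genes). Between the fractions 3 of 8 were lower in Fr.B/C of fetal liver, where 22.8% of all genes passed and 12.7% were lower. In bone marrow 1 of 8, Mpo, was lower in Fr.B/C, where 32.3% of all genes passed and 18.9% were lower. The bone marrow count is therefore below the share of all genes called there. The genes whose groups did not overlap were the same in number: 5 in Fr.A against 26.2% of all genes, 4 in Fr.B/C against 29.5%, 3 in fetal liver against 24.1% and 1 in bone marrow against 29.6%.

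The median difference of the 8 genes was -1.57 for Fr.A and -1.46 for Fr.B/C between tissues, beside -0.02 and 0.01 over all genes tested. Between fractions it was -0.57 in fetal liver and -0.38 in bone marrow, beside 0.00 and -0.04. By group means, Lyz2, Elane, Ltf, Ngp and Ctsg stood lowest in fetal liver Fr.B/C, then in fetal liver Fr.A, then in Fr.B/C of bone marrow and highest in Fr.A of bone marrow. Neighbours of the same tissue did not pass the test for Elane, Ltf, Ngp and Ctsg, nor for Lyz2 in bone marrow, in the fit without a block. For Ctsg, fetal liver Fr.A (3.27 ± 0.46) and bone marrow Fr.B/C (3.38 ± 0.80) lay side by side (SD, n = 4 each). Camp had close means in fetal liver Fr.B/C (3.97 ± 1.27) and Fr.A (3.96 ± 1.26), below bone marrow Fr.B/C (5.91 ± 0.42) and Fr.A (6.44 ± 0.42; SD, n = 4 each). Ltf, Ngp, Camp and Elane passed in neither tissue between the fractions. Their differences there ran from -0.53 for Camp in bone marrow to 0.00 for Camp in fetal liver.

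With the sort as a block, 5 of 8 genes were lower in Fr.B/C of fetal liver, where 32.2% of all genes passed, and 5 of 8 in bone marrow, where 41.6% passed. In fetal liver these were Prtn3 (limma adjusted p = 1.78e-06), Mpo (1.26e-05), Lyz2 (0.000262), Ctsg (0.00773) and Ltf (0.014). In bone marrow they were Mpo (1.91e-05), Ctsg (0.00256), Camp (0.00595), Lyz2 (0.0129) and Ltf (0.0175). Between the tissues in Fr.B/C, where same-numbered arrays also deviated together, the replicate block added Elane (limma adjusted p = 0.00259) and Ctsg (limma adjusted p = 0.00447), making 6 of 8 where 34.5% of all genes passed.

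Most calls that the blocks added did not hold when the 2 array sets of each group were taken as the samples. Between the fractions of bone marrow, Mpo and Ctsg passed with the sets averaged (limma adjusted p = 0.00129 and 0.0223), and only Mpo with the set as a random block. In fetal liver, Mpo, Prtn3 and Lyz2 passed with the sets averaged, and Mpo and Prtn3 with the set as a random block. Between the tissues in Fr.B/C, Ctsg passed with the sets averaged (limma adjusted p = 0.0285) and Elane did not (limma adjusted p = 0.0532), and neither passed with the set as a random block (limma adjusted p = 0.212 and 0.105). The tissue calls of Lyz2, Ltf, Ngp and Camp passed in both fractions in both of these fits, with limma adjusted p of 0.0391 or less.

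Arrays 3 and 4 of each group read higher than arrays 1 and 2 for nearly every member. The set means differed by 0.23 to 2.20 for 8 of 8 genes in fetal liver Fr.B/C and by 0.02 to 2.07 for 8 of 8 in fetal liver Fr.A. In bone marrow they differed by 0.02 to 1.35 for 8 of 8 in Fr.B/C and by -0.10 to 1.28 in Fr.A, where 7 of 8 were higher. The labels do not say what distinguishes the sets. No scan session held arrays of both sets, so the set and the session cannot be told apart. Within each set the called tissue differences kept their sign: Camp in Fr.A was -3.21 on arrays 1 and 2 and -1.75 on arrays 3 and 4, and in Fr.B/C -2.69 and -1.20. Ltf in Fr.A was -3.13 and -2.43, and Prtn3 in Fr.A was 1.40 and 0.57. The Mpo stage difference was -3.40 and -2.21 in fetal liver, and -3.18 and -1.93 in bone marrow.

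The members also differed in how they moved together over the 16 arrays. The 3 secondary granule genes correlated at r = 0.92 to 0.97, the 6 pairs of primary granule genes at r = 0.13 to 0.78. The arrays share the reference RNA and the array sets, so these values describe the arrays and carry no test. On deviations from the group means, r was 0.82 to 0.95 among the secondary granule genes, 0.46 to 0.89 among the primary and 0.25 to 0.86 for the 12 pairs across the classes.

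The genes with the most similar profile over the 16 arrays are given for each member by Pearson r. Only genes outside the set, with a plain gene symbol and usable on all 16 arrays, were ranked. Mpo was nearest to Tyrobp (r = 0.985), Gatc (0.970) and Slc29a3 (0.969). Lyz2 was nearest to Scin (0.988), Lyz1 (0.985) and Pik3ip1 (0.980). Ltf was nearest to Lcn2 (0.994), Hp (0.979) and Fpr2 (0.977). Camp was also nearest to Lcn2 (0.977), then to S100a8 (0.968) and Hp (0.961). Ngp was nearest to Retnlg (0.982), Pglyrp1 (0.977) and Lyz1 (0.974). Lcn2, Hp, Retnlg and Pglyrp1 encode secondary or tertiary granule proteins, and S100a8 a calcium-binding protein of the neutrophil cytosol. Elane was nearest to F10 (0.919), Trem3 (0.912) and Tasor (0.910). Prtn3 was nearest to Kdm5b (0.942), Zfp503 (0.920) and Arhgef40 (0.904), and Ctsg to Cd63 (0.938), Wfdc21 (0.902) and Maff (0.900).

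Other genes of the same granules were described from lists. Beside the counts of these and later lists, 2728 of all 22437 genes were higher and 3889 lower in fetal liver Fr.A than in bone marrow Fr.A. In Fr.B/C 3109 were higher and 3279 lower in fetal liver. Between the fractions 2256 were higher and 2856 lower in Fr.B/C of fetal liver, and 3018 were higher and 4234 lower in bone marrow. Of 13 other measured secondary and tertiary granule genes, fetal liver was lower than bone marrow for 10 in Fr.A and for 9 in Fr.B/C, and none was higher. Their median difference was -1.36 for Fr.A and -1.35 for Fr.B/C. Mmp8, the neutrophil collagenase, differed by -2.36 ± 0.23 for Fr.A and -2.05 ± 0.23 for Fr.B/C (SE, limma adjusted p = 1.48e-06 and 7.25e-06). Chil3, a chitinase-like protein, differed by -3.39 ± 0.36 and -2.73 ± 0.36 (SE, limma adjusted p = 3.67e-06 and 3.79e-05). Mmp9, the gelatinase of tertiary granules, differed by -2.39 ± 0.20 in Fr.A (SE, limma adjusted p = 3.42e-07). On the fetal liver Fr.B/C arrays it never stood well above background. By sample signal Mmp9 was at least 4.36-fold lower there, the bright group's mean against the lowest signals that stood well above background. The fitted ratio difference was -2.02 ± 0.20 (SE, limma adjusted p = 2.07e-06). Lcn2, the siderophore-binding protein that was nearest to Ltf, differed by -2.37 ± 0.56 and -2.31 ± 0.56 (SE, limma adjusted p = 0.00441 and 0.00571).

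Of 6 other primary granule genes measured, 3 were lower in fetal liver in each fraction and none was higher, with medians of -0.47 for Fr.A and -0.43 for Fr.B/C. The 3 were Srgn, Cd63 (-0.80 and -0.64) and Lyz1 (-1.94 and -2.51). The Lyz1 probe also lists the transcript of the member Lyz2, so the pair cannot be told apart by it. Srgn, the proteoglycan that packs granule proteases, differed by -0.53 ± 0.13 for Fr.A and -0.54 ± 0.13 for Fr.B/C (SE, limma adjusted p = 0.00503 and 0.00437). Gusb, the lysosomal glucuronidase, showed 0.08 and -0.05 between the tissues (limma adjusted p = 0.66 and 0.805). It was lower in Fr.B/C than in Fr.A, at -0.75 ± 0.11 in fetal liver and -0.63 ± 0.11 in bone marrow (SE, limma adjusted p = 0.000142 and 0.000482).

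**Figure D4:**
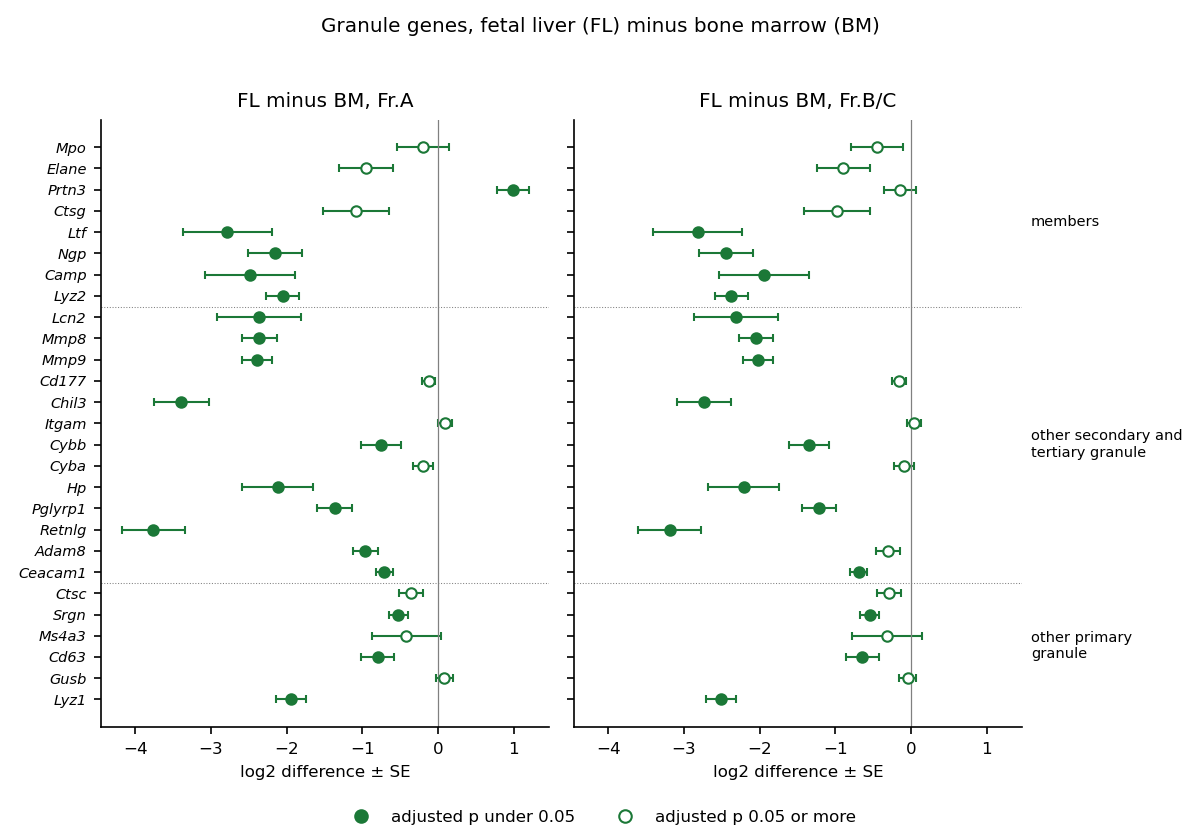
The panels give the log2 difference between fetal liver and bone marrow with its SE for the 8 members and the other granule genes of the lists, filled where the limma adjusted p is under 0.05. The other secondary and tertiary granule genes have medians of -1.36 for Fr.A and -1.35 for Fr.B/C. The Mmp9 point of Fr.B/C is the fitted ratio difference of -2.02, although Mmp9 never stood well above background on the fetal liver Fr.B/C arrays.

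Inhibitors of the granule proteases and of cathepsins are also made by myeloid cells. Of 6 measured, 2 were higher and 3 lower in fetal liver Fr.A, and 1 was higher and 4 lower in Fr.B/C. Serpinb1a, which inhibits elastase, cathepsin G and proteinase 3, was lower in fetal liver, at -1.30 ± 0.12 for Fr.A and -3.05 ± 0.12 for Fr.B/C (SE, limma adjusted p = 1.10e-06 and 6.82e-11). Slpi, a secreted inhibitor of elastase, was likewise lower, at -3.36 ± 0.40 and -1.86 ± 0.40 (SE, limma adjusted p = 1.16e-05 and 0.0024). Cst7, an inhibitor of cysteine cathepsins, was lower, at -2.01 ± 0.12 and -1.48 ± 0.12 (SE, limma adjusted p = 6.10e-09 and 1.75e-07). Stfa3 and Stfa2 of the same list went the other way, and were named after their values were seen. Stfa3 was higher in fetal liver, by 2.89 ± 0.62 for Fr.A and 2.81 ± 0.62 for Fr.B/C (SE, limma adjusted p = 0.00215 and 0.0029). The Stfa2 differences were 1.87 ± 0.58 and 1.43 ± 0.58 (SE, limma adjusted p = 0.0243 and 0.0793), so Stfa2 passed for Fr.A only.

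Of 13 measured transcription factors and receptors of granulocyte and monocyte development, 2 were higher and 5 lower in fetal liver Fr.A, and 1 was higher and 6 lower in Fr.B/C. Between fractions, 2 were higher and 6 lower in Fr.B/C of fetal liver, and 2 were higher and 7 lower in bone marrow. Cebpb, a C/EBP factor of myeloid cells, was lower in Fr.B/C, at -2.12 ± 0.19 in fetal liver and -2.31 ± 0.19 in bone marrow (SE, limma adjusted p = 8.34e-07 and 2.22e-07), with tissue differences of 0.17 and 0.37 (limma adjusted p = 0.566 and 0.175). Irf8, a factor of monocyte and dendritic cell fate, was lower in fetal liver, at -0.70 ± 0.08 for Fr.A and -1.81 ± 0.08 for Fr.B/C (SE, limma adjusted p = 1.25e-05 and 2.70e-10). Csf1r, the receptor of macrophage colony-stimulating factor, was higher in fetal liver Fr.A by 1.77 ± 0.13 (SE, limma adjusted p = 8.62e-08).

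Markers of other cells moved with the same comparisons, and their part in the granule results was not tested. Of 9 measured erythroid markers, 7 were higher in fetal liver Fr.A and 7 in fetal liver Fr.B/C. Their mean log2 ratio per array was 1.87 to 3.30 in fetal liver Fr.A, against 0.96 to 1.11 in bone marrow Fr.A. In Fr.B/C it was 2.10 to 3.18 in fetal liver, against 0.57 to 0.93 in bone marrow. Of 14 measured macrophage and monocyte markers, 4 were higher and 3 lower in fetal liver Fr.A, and 4 were higher and 2 lower in Fr.B/C. Their mean was 0.08 to 0.36 in fetal liver Fr.A, against 0.24 to 0.42 in bone marrow Fr.A, and in Fr.B/C -0.22 to -0.01, against -0.28 to -0.06. Between fractions 5 of these 14 were lower in Fr.B/C of each tissue, and none was higher.

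Among the macrophage markers, Cd163, a haemoglobin scavenger receptor, was lower in fetal liver Fr.A, at -2.79 ± 0.12, whereas Fcgr1, a high-affinity antibody receptor, was higher by 1.35 ± 0.12 (SE, limma adjusted p = 2.77e-10 and 7.02e-07). Of 7 measured NK cell markers, 5 were lower in fetal liver Fr.A and 2 in Fr.B/C. Their mean was -0.45 to -0.21 in fetal liver Fr.A, against 0.54 to 0.80 in bone marrow Fr.A. In Fr.B/C it was -1.38 to -1.18 in fetal liver, against -0.70 to -0.54 in bone marrow. Of 9 eosinophil, basophil and mast cell markers, 2 were lower in fetal liver in each fraction. Their mean was -0.44 to 0.13 in fetal liver Fr.A, against 0.08 to 0.47 in bone marrow Fr.A. In Fr.B/C it was -0.64 to -0.36 in fetal liver, against -0.26 to -0.06 in bone marrow. Mcpt8, a basophil protease, never stood well above background in fetal liver, at least 2.93-fold lower in Fr.A and 3.53-fold lower in Fr.B/C. Of 7 plasmacytoid dendritic cell markers, 4 were higher and 2 lower in fetal liver Fr.A, and 2 were lower in Fr.B/C. Their mean was 0.36 to 0.42 in fetal liver Fr.A, against -0.29 to -0.04 in bone marrow Fr.A. In Fr.B/C it was -0.67 to -0.31 in fetal liver, against -0.30 to -0.16 in bone marrow. Of 8 hepatocyte markers only 3 were measured, with means of 0.67 to 0.72 in fetal liver Fr.A, against 1.15 to 1.53 in bone marrow Fr.A.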

How the data were processed

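The members and gene lists were chosen with earlier results of these data known. Per the file headers, the deposited scanner files (Feature Extraction 8.5.1.1) hold mean, background and processed signals of both dyes as intensity, and the processed signals were background-subtracted and dye-normalized. The deposited scanner files also give a log10 ratio of the dyes, Cy5 over Cy3, which was not used. The authors also deposited a table of log2 ratios, sample over reference, centred near 0 (array medians -0.00726 to 0.0201) and correlated across probes with the present ratios (r = 0.951 to 0.965). Beyond limma, which the submitters' processing notes name without a version, its method is not given in the sources used. Every column of it matched a sample.

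For this work, background was corrected with normexp (offset 50, which compresses dim ratios) and each array was loess-normalized (limma 3.58.1, R 4.3.3). Outlier-marked spots were left out, saturated spots kept and control spots given weight 0. Probes well above background in the sample channel on at least 3 of 4 arrays of any group, with at least 12 usable arrays, were kept (27522 of 41174). A gene was represented by its brightest kept probe, and names came through listed accessions and RefSeq. One limma model with the 4 groups and the dye orientation covered the 16 arrays, with p adjusted by Benjamini-Hochberg over 22437 genes. It was also run on simulated data with noise drawn independently for each array. That run therefore cannot check whether the arrays of a set are independent. The number of arrays limits the precision.

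Named genes were the 8 members, up to 3 genes of each list with the smallest adjusted p among those called, and the 3 genes outside the set, with a plain symbol, most correlated with each member. Cd34, Rag1, Rag2, Ptprc, Stfa2 and Stfa3 fall outside this rule. Each sort gave both fractions, and same-numbered Fr.B/C and Fr.A arrays deviated together from their group means and the dye effect (r = 0.25 to 0.38 in fetal liver, 0.42 to 0.52 in bone marrow), as did same-numbered fetal liver and bone marrow Fr.B/C arrays (r = 0.28 to 0.48). Blocked fits are given beside results they changed. Alternatives covered centring, scaling, background, filters, probe choice, dyes, blocks, array sets, scan session and each array left out. The sample channel alone, single array sets and no offset were added after seeing the data.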

Additional observations from a re-analysis of the deposited data

Results flagged for a closer look

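Prtn3 differed in its stage difference between the tissues by the test of that difference itself. Fr.B/C minus Fr.A was -1.23 in fetal liver and -0.10 in bone marrow, and fetal liver minus bone marrow of these was -1.13 ± 0.30 (SE, 4 arrays per group, limma adjusted p = 0.0302). Prtn3 was below every fetal liver Fr.A array on 4 of 4 fetal liver Fr.B/C arrays. The call did not hold in 8 of the 16 fits that left out 1 array, nor with median centring, processed signals, averaged array sets or the array set as a random block, and adjusted p ran from 0.000348 to 0.533 over the alternatives. No other member passed this test. No array of any group stood apart from the other 3 for any of the 8 genes by Dixon's test.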

How the results depend on the processing

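None of the differences called for a member changed sign under any alternative. Over the alternatives that kept all arrays or chose a subset by dye or array set, 751 values of members kept direction and call, 45 newly passed and 28 no longer passed. Where 1 array was left out, the counts were 615, 9 and 16. With Cy5 arrays only, 1 member passed between the tissues in Fr.A, 1 in Fr.B/C, and 1 between the fractions of fetal liver. Between the fractions of bone marrow, where 1 passed, 3 passed with the replicate block, 5 with the replicate block within tissue, 2 with averaged array sets, 2 with scan session as a random block, 2 from the sample channel alone, 3 on arrays 1 and 2 and 4 on arrays 3 and 4. Over all genes these fits called, in that order, 8393, 9341, 4767, 8654, 8494, 6383 and 10231 of 22437, against 7252 in the main fit. In fetal liver, where 3 passed, 5 passed with the replicate block within tissue and 5 on arrays 3 and 4, where 7227 and 9461 of all genes passed. The tissue contrast of the stage difference, which Prtn3 passed, had 0 members under median centring, processed signals, Cy5 arrays only, Cy3 arrays only, averaged array sets, array set as a random block and no offset. Leaving out 1 array gave 5 to 6 members in Fr.A, 3 to 6 in Fr.B/C, 2 to 3 in fetal liver, 1 in bone marrow and 0 to 1 for that contrast. Over all genes those fits called, in that order, 5483 to 6597, 4996 to 6665, 4154 to 5300, 6290 to 7491 and 1216 to 1740. In Fr.A the replicate block, whose numbers did not pair the tissues there (r = -0.26 to 0.15), gave 7 members, where 7782 of all genes passed. The cause of these shifts was not tested.

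Over all genes, main counts were 6617 in Fr.A, 6388 in Fr.B/C, 7252 in bone marrow, 5112 in fetal liver and 1686 for the contrast of stage differences. In that order, Cy5 arrays gave 2315, 1681, 2753, 1715 and 34, Cy3 arrays 2141, 1555, 2758, 1304 and 11, averaged sets 4058, 3752, 4767, 2951 and 252, and the set as a random block 4026, 3638, 4692, 3016 and 510. Median centring gave 4218, 4390, 4267, 2723 and 445, with 22.5% higher in Fr.A (41.2% otherwise), 20.4% in Fr.B/C (48.7%) and 31.7% in fetal liver (44.1%). Arrays 3 and 4 gave 10412 in Fr.A, 9461 in fetal liver and 7048 for the contrast, which numbered 976 with scaling, 1106 with processed signals, 2688 and 3670 with the 2 blocks, 3050 with scan session, 2922 from the sample channel, 739 on arrays 1 and 2 and 1043 with no offset. Dim spots limit Elane, the only member not well above background on every array, and also Ngp and Prtn3. In fetal liver Fr.B/C the processed sample signal was 50.1 to 189 for Elane, 99.8 to 252 for Ngp and 185 to 223 for Prtn3. Reference signals there were 20.7 to 92.4 for Ngp, 25.1 to 72.7 for Camp and 36.9 to 75.0 for Ltf. The offset of 50 compresses dim ratios.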
